A study of Rattus norvegicus with 12 samples.

Results

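The members were chosen by name: both mature arms of the hairpins miR-139 and miR-342, 4 of the 375 miRNA assays of a rodent TaqMan qPCR card (miR-139-5p, miR-139-3p, miR-342-5p and miR-342-3p). These hairpins were chosen on the stellate against non-stellate contrast, because the study named 1 arm of each as higher in stellate cells, so that contrast is given here as a description without a test. The aim of the study was to find miRNAs of stellate cells, neurons of layer II of the rat medial entorhinal cortex that project to the dentate gyrus. Long Evans pups received the retrograde tracer DiO by iontophoresis into both dentate gyri on postnatal day 2, and at 4 or 5 days of age their medial entorhinal cortex was dissociated and sorted into DiO-positive cells (stellate, 5 samples) and DiO-negative cells (non-stellate, 5 samples), with both hemispheres of an animal pooled. The tissue samples, 2 in number, were undissociated medial entorhinal cortex from Long Evans rats of postnatal day 23. Stellate identity rests on the projection to the injected area, and unlabelled cells can include stellate cells that the dye did not reach.

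A miRNA hairpin is cut by Drosha and then Dicer into a short duplex of its 5′ arm (5p) and its 3′ arm (3p). Usually 1 strand of the duplex is retained by an Argonaute protein, where its seed, near the 5′ end, pairs with target mRNAs, and the other strand is degraded, so both arms come from 1 transcript but may reach different levels. The hairpin of miR-139 lies within Pde2a, a phosphodiesterase gene that acts on cyclic nucleotides, and the hairpin of miR-342 within Evl, a gene of the Ena/VASP family of actin regulators.

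Mature sequences were found in RefSeq for 4 of the 4 members and are shown because the arms of a hairpin were measured by separate assays. Bases 2 to 8, the seed, are in capitals, and no other rat mature miRNA of the table had the same seed as any member (0 for each). The assays of the card carry mouse names, while the sequences are those of rat.
miR-139-5p: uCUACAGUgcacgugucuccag
miR-139-3p: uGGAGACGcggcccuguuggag
miR-342-5p: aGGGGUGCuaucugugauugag
miR-342-3p: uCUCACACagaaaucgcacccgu

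The hairpins show where each arm is cut from, with the mature arms in capitals and the 5p arm first. Mir139 lies on the plus strand of the GRCr8 build at chr1:165290859-165290926, inside the span of Pde2a (chr1:165235623-165327466), and 14 bases separate its arms. Mir342 lies on the plus strand at chr6:133329655-133329753, inside the spans of Evl (chr6:133238547-133358730) and of the long non-coding RNA LOC102555052 (chr6:133291567-133345614), and 20 bases separate its arms. Whether these positions are exonic or intronic was not determined, because only gene spans were used. Among the mature arms, miR-139-3p had the highest share of G and C, 68.2%, against 54.5% for miR-139-5p, 52.2% for miR-342-3p and 50.0% for miR-342-5p.
Mir139 hairpin: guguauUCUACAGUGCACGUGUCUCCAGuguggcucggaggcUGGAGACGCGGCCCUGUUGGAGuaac
Mir342 hairpin: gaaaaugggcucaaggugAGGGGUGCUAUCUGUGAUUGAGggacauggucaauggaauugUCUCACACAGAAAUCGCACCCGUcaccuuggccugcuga

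Levels were read as Ct, the PCR cycle at which a well crosses its threshold, so a lower Ct is a higher level and 1 cycle is 1 log2 unit. Wells that never crossed it were deposited as Ct 40, while the highest determined Ct on the cards was 38.2. Between 234 and 260 miRNA assays were determined in stellate samples, 203 to 241 in non-stellate samples and 292 to 302 in tissue. The small nuclear RNA U6, the reference of the deposited normalization, had mean Ct values of 16.5 to 19.0, 17.7 to 20.2 and 15.6 to 16.0 in the same order. The median Ct of the 176 miRNA assays determined in all 12 samples was 28.0 to 29.5, 28.9 to 30.9 and 23.7, so tissue preceded sorted cells by more cycles in miRNA than in U6. Values are therefore given both as Ct minus U6 and as Ct minus that median (median centring). The 5 neuronal marker miRNAs (miR-124, miR-128a, miR-138, miR-129-3p and miR-9) were determined in every sample. Their summed levels relative to U6 were -3.06 to -1.84 log2 units in stellate, -4.21 to -1.45 in non-stellate and 0.49 to 0.91 in tissue samples. MiR-9 had the earliest Ct of them in every sample and so weighed most in this sum. Of the blood and microglia markers, miR-451 and miR-142-5p were undetermined in all 10 sorted samples. MiR-223 and miR-142-3p were determined in all 10, at Ct 29.96 to 32.9 and 30.7 to 35.15. Of the oligodendrocyte markers, miR-219 was undetermined in all 5 stellate and miR-338-3p in all 5 non-stellate samples. All of these were determined in tissue. The summed level relative to U6 of the blood and microglia markers, 4 of 5 being on the card, was -13.0 to -11.9 log2 units in stellate, -13.7 to -11.9 in non-stellate and -8.08 to -7.66 in tissue samples. An oligodendrocyte marker was determined in 3 of 5 stellate samples, by miR-338-3p alone, and in 2 of 5 non-stellate samples, by miR-219 alone. The summed level there was -18.5 to -16.8 and -14.1 to -13.4, against -9.90 to -9.03 in both tissue samples. The stellate and non-stellate values come from different assays and cannot be compared with each other. The 4 vascular markers were determined in every sorted well but 1, with summed levels of -10.2 to -5.96 log2 units in stellate, -11.0 to -8.05 in non-stellate and -3.52 to -2.99 in tissue samples. Their part in the results below was not tested.

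Within each hairpin the arm with the earlier Ct was the same in every sample. For miR-139 it was the 5p arm. Stellate samples 1 to 5 had Ct 24.4, 25.1, 26.5, 25.3 and 24.9 for miR-139-5p, non-stellate samples 26.4, 26.4, 28.1, 26.4 and 28.3, and tissue 19.5 and 19.5. For miR-139-3p the stellate samples had 26.04, 27.0, 27.7, 26.9 and 26.1, the non-stellate samples 28.2, 28.9, 40 (undetermined), 27.9 and 31.5, and tissue 22.8 and 23.5. Both arms came up earlier in tissue than in any sorted sample, and so did both arms of miR-342 (below). These are raw Ct, and the median Ct of the common assays was earlier in tissue too, at 23.7 against 28.0 to 30.9. How many assays separated in this way was not counted.

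For miR-342 the earlier arm was 3p. MiR-342-3p had Ct 23.8, 25.9, 28.3, 25.97 and 25.4 in stellate samples, 26.3, 26.8, 28.1, 26.4 and 28.9 in non-stellate samples, and 22.1 and 21.9 in tissue. MiR-342-5p had 29.6, 29.5, 32.1, 29.7 and 29.5 in stellate samples, 31.5, 30.8, 40 (undetermined), 30.2 and 33.7 in non-stellate samples, and 28.2 and 27.5 in tissue. The 5p arm was thus the latest of the 4 members in each sample where it was determined. Among the determined assays of a sample ordered from the earliest Ct, its median position was 131 in stellate, 144.5 in non-stellate and 203.5 in tissue samples. The same position was 34, 37 and 16 for miR-139-5p, 53, 82.5 and 76.5 for miR-139-3p, and 44, 42 and 49.5 for miR-342-3p. A Ct compares an assay with itself across samples, and the efficiencies of the assays were not known, so these positions are not amounts.

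The arm of each hairpin that the study named, miR-139-3p and miR-342-5p, was the later arm, and each was undetermined in the same single sample, non-stellate 3. Over the sorted samples, 23 assays were undetermined in 1 sample and determined in the other 9. MiR-139-3p had the lowest mean Ct of these in its other 9 samples, 27.8, and no other of the 23 was under 30, the next being miR-494 at 30.04. In non-stellate 3, 6 assays were undetermined in that sample alone, and miR-342-5p came second among them with a mean Ct of 30.7 elsewhere. The opposite arms were determined in that sample, at Ct 28.1 for miR-139-5p and 28.1 for miR-342-3p. With the differences between arms seen in the other 9 sorted samples, the undetermined arms would lie at Ct 29.2 to 31.2 for miR-139-3p and 31.6 to 33.9 for miR-342-5p, both below the highest determined Ct. Whether these wells failed or held less of the arm was not tested. The labels of non-stellate 3 also conflict, since its description field reads as that of labelled cells.

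**Figure D1:**
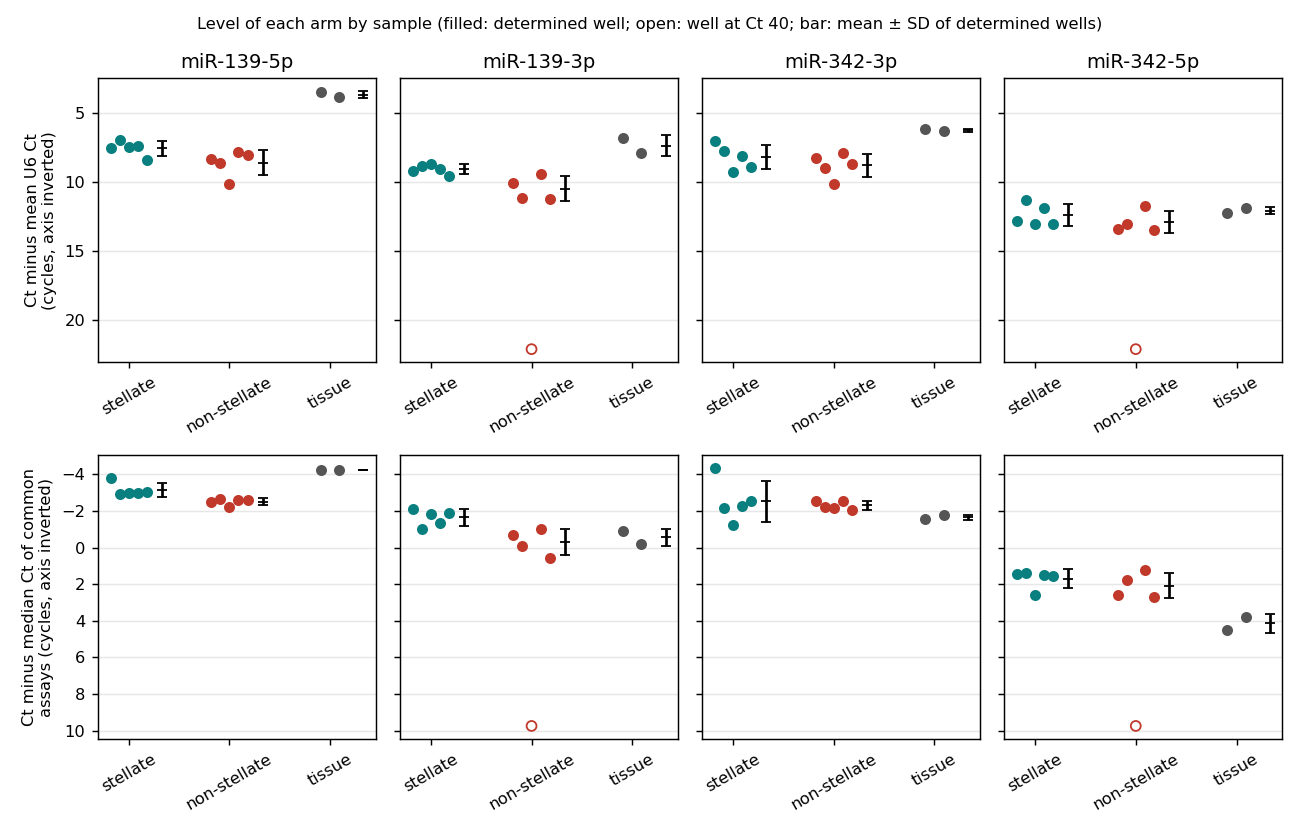
Level of each arm by sample, as Ct minus the mean U6 Ct (upper row) and Ct minus the median Ct of the common assays (lower row), in cycles on an inverted axis so that higher levels are up; filled points are determined wells, open points wells at Ct 40, and bars the mean ± SD of determined wells (5 stellate, 4 or 5 non-stellate and 2 tissue samples). The open points, non-stellate 3 for miR-139-3p and miR-342-5p, lie far under every other value. MiR-139-5p in the lower row steps down from tissue to stellate to non-stellate with no overlap, an order whose share among all assays was not counted.

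Relative to U6, miR-139-3p stood at 9.07 ± 0.344 cycles in stellate and at 12.8 ± 5.24 in non-stellate samples (SD, n = 5 each). In such pooled cells, a change in the share of cells of a type and a change in RNA per cell cannot be told apart. The non-stellate value was 10.5 ± 0.888 (SD, n = 4) over determined wells. Differences of stellate minus non-stellate samples of the same replicate number were 0.86, 2.33, 13.41, 0.40 and 1.70 log2 units, and the third of these rests on the well at 40. Their mean was 3.74 ± 5.45 (SD, n = 5) with that well and 1.32 ± 0.859 (SD, n = 4) without it, all in the same direction. In the 222 assays with a determined Ct in at least 7 of the sorted samples, the median difference was 0.46, with 163 higher in stellate samples, and it was 0.07, with 117 higher, after median centring. Median centring left miR-139-3p at 1.29 ± 0.893 (SD, n = 4) over determined wells.

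The opposite arm, miR-139-5p, had no undetermined well. It stood at 7.57 ± 0.530 cycles over U6 in stellate and 8.60 ± 0.899 in non-stellate samples (SD, n = 5 each), and the groups overlapped. The differences by replicate number were 0.79, 1.63, 2.65, 0.46 and -0.36, with a mean of 1.03 ± 1.15 (SD, n = 5). After median centring they were 0.64 ± 0.442 (SD, n = 5) and positive in 5 of 5. On that scale the stellate samples had -3.81, -2.90, -2.996, -2.98 and -3.02 cycles and the non-stellate samples -2.47, -2.63, -2.20, -2.59 and -2.63, so that every stellate sample was above every non-stellate sample. Of the 176 assays, 5 (2.84%) separated the groups in this direction and 3 in the other, the former being miR-127, miR-132, miR-139-5p, miR-221 and miR-222. The U6-scaled mean rested in part on non-stellate 3, and the difference between group means was 0.65 without that sample. Over the same 4 replicate numbers, in which all wells were determined, the mean differences of the 3p and 5p arms were 1.32 ± 0.859 and 0.63 ± 0.820 (SD, n = 4) with U6 scaling, and 1.29 ± 0.893 and 0.60 ± 0.499 (SD, n = 4) after median centring.

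The arms of miR-342 differed between the sorted groups by means within their spread. MiR-342-5p stood at 12.4 ± 0.790 cycles over U6 in stellate and 14.7 ± 4.17 in non-stellate samples (SD, n = 5 each), or 12.9 ± 0.810 (SD, n = 4) over determined wells. The differences were 0.58, 1.73, 9.01, -0.16 and 0.41, the 9.01 resting on the well at 40. Their mean of 2.31 ± 3.81 (SD, n = 5) became 0.64 ± 0.793 (SD, n = 4) without it, less than the spread between replicates, with 3 of 4 positive. Median centring gave 0.61 ± 0.672 over the same 4.

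MiR-342-3p had no undetermined well and stood at 8.19 ± 0.901 and 8.80 ± 0.863 cycles over U6 in stellate and non-stellate samples (SD, n = 5 each), with overlap. Its differences were 1.25, 1.29, 0.90, -0.17 and -0.22, a mean of 0.61 ± 0.751 (SD, n = 5), again within the spread. The difference between group means was 0.27 without non-stellate 3, 0.31 without stellate 1 and 0.20 without non-stellate 3 and 5. Over the 4 replicate numbers with all wells determined, it was 0.54 ± 0.847 (SD, n = 4) for miR-342-3p, beside 0.64 ± 0.793 for miR-342-5p. After median centring the mean was 0.21 ± 1.03 (SD, n = 5) and 2 of 5 were positive. Stellate 1 was highest on that scale, at -4.34 cycles, against -2.57 to -1.23 in the other stellate samples and -2.54 to -2.04 in the non-stellate samples.

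**Figure D2:**
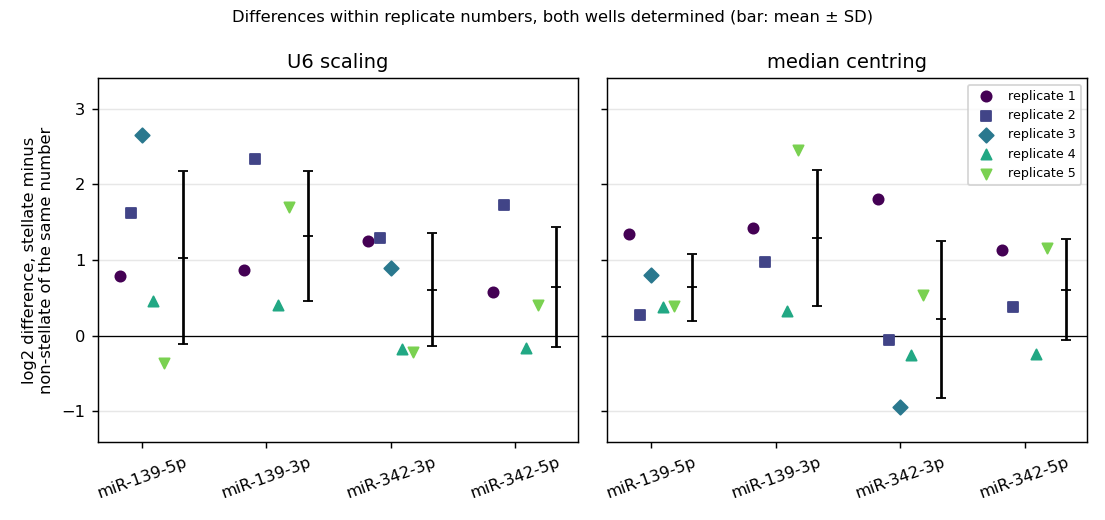
Log2 difference of each arm, stellate minus the non-stellate sample of the same replicate number, with U6 scaling (left) and median centring (right); symbols are replicates, only differences with both wells determined are plotted, and bars are the mean ± SD (n = 5 for miR-139-5p and miR-342-3p, 4 for miR-139-3p and miR-342-5p). MiR-139-3p lies above 0 in each of its 4 replicate numbers on both scales, and for every member but miR-139-3p and, after median centring, miR-139-5p at least 1 replicate lies below 0.

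The arms were next compared within each sample. The difference in Ct, 3p minus 5p (the arm gap), needs no reference RNA, since U6 cancels. The amount of RNA cancels as well only if both assays amplify with equal efficiency, which was not known. With unequal efficiencies the gap would also move with the amount. The median Ct of the common assays was 23.7 in tissue against 28.0 to 30.9 in sorted samples. Only changes of the gap between samples can be read, because its absolute size includes the efficiencies of both assays. Wells were single, so the precision of a well is known only for U6, at earlier Ct than the members in sorted samples (pooled SD 0.366 cycles).

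The gap of miR-139 was 1.68, 1.86, 1.18, 1.62 and 1.12 cycles in stellate samples and 1.76, 2.57, 1.56 and 3.17 in non-stellate samples 1, 2, 4 and 5. In tissue it was 3.33 and 4.02. Tissue lay above every determined sorted sample, and the sorted groups overlapped. The means were 1.49 ± 0.325 (SD, n = 5) in stellate and 2.27 ± 0.746 (SD, n = 4) in non-stellate samples. Within replicate numbers the gap was smaller in stellate samples by a mean of 0.69 cycles, written as stellate minus non-stellate -0.69 ± 0.964 (SD, n = 4), and replicate 5 gave the largest of these differences, -2.05. Without replicate 5, whose non-stellate sample has conflicting labels, the mean was -0.24 ± 0.408 (SD, n = 3).

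The gap of miR-342 was -5.79, -3.57, -3.81, -3.77 and -4.13 cycles in stellate samples and -5.12, -4.01, -3.78 and -4.76 in the same 4 non-stellate samples. In tissue it was -6.08 and -5.54, and stellate 1 lay between these. The means were -4.21 ± 0.905 (SD, n = 5) in stellate and -4.42 ± 0.628 (SD, n = 4) in non-stellate samples. The difference within replicate numbers, 0.10 ± 0.577 (SD, n = 4), was smaller than its spread, and ran from -0.07 to 0.36 without 1 replicate number each.

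**Figure D3:**
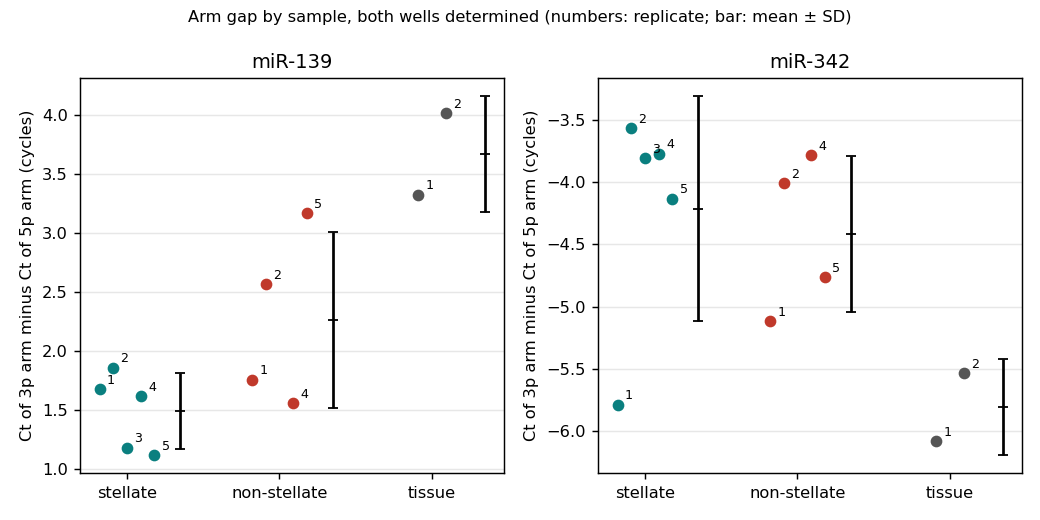
Arm gap (Ct of the 3p arm minus Ct of the 5p arm, cycles) of miR-139 and miR-342 in each sample with both wells determined; numbers are replicates and bars the mean ± SD (5 stellate, 4 non-stellate and 2 tissue samples). The tissue samples of miR-139 lie above all sorted samples, at 3.33 and 4.02, while those of miR-342 lie on both sides of stellate 1.

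The gap was tested between tissue and sorted cells, a comparison not used to choose the members. These groups differ at once in age, in dissociation and sorting, in the RNA extraction kit and in the median Ct of the cards, which cannot be told apart. With all 12 samples and wells at 40 kept, the gap of miR-139 was 0.826 cycles larger in tissue (exact two-sided permutation p = 0.364, adjusted over both hairpins 0.394). That of miR-342 differed by -0.746 cycles (exact permutation p = 0.394, adjusted 0.394). Non-stellate 3 had gaps of 11.9 and -11.9 cycles here, which are set by the wells at 40. Without it, the gap of miR-139 was larger in tissue by 1.84 cycles, from 1.84 ± 0.653 (SD, n = 9) in sorted to 3.67 ± 0.488 (SD, n = 2) in tissue samples. The exact permutation p was 0.0364, the smallest that 9 against 2 allows, and adjusted over both hairpins it was 0.0727. That of miR-342 differed by -1.51 cycles, from -4.30 ± 0.755 (SD, n = 9) to -5.81 ± 0.385 (SD, n = 2), with an exact permutation p of 0.0727 (adjusted 0.0727). In both hairpins the mean gap of tissue was thus wider, with the later arm further behind the earlier arm, and neither difference passed 0.05 after adjustment. These permutations treated the sorted samples as independent, although equal replicate numbers were read as pairs. With 5 replicate means against 2 tissue samples, the smallest exact permutation p possible was 0.0952.

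Each arm was also tested between tissue and sorted cells by limma over the 222 assays. With U6 scaling, 138 assays (62.2%) were higher in tissue and 3 (1.35%) lower at a Benjamini-Hochberg adjusted p under 0.05, and the median difference was 3.02 log2 units. Of the 4 members, 2 were called, both higher, a share close to this background. MiR-139-5p was higher in tissue by 4.40 ± 0.624 (SE; limma adjusted p = 0.000102) and miR-342-3p by 2.24 ± 0.690 (SE; limma adjusted p = 0.0123). MiR-139-3p differed by 3.57 ± 2.34 (SE; limma adjusted p = 0.201) and miR-342-5p by 1.497 ± 1.91 (SE; limma adjusted p = 0.516), both with the well at 40 in the fit. With undetermined wells missing, miR-139-3p was higher by 2.41 ± 0.661 (SE; limma adjusted p = 0.00331) and miR-342-5p differed by 0.58 ± 0.690 (SE; limma adjusted p = 0.478). In that setting 151 of 221 assays were higher in tissue and 4 lower.

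Differences were then read against the median of all assays. Relative to that median, the difference was 1.38 for miR-139-5p and 0.55 for miR-139-3p, but -0.77 for miR-342-3p and -1.52 for miR-342-5p. The value of miR-139-3p rests on the well at 40, and it turned to -0.50 with undetermined wells missing and -0.42 without non-stellate 3. After median centring, 53 assays (23.9%) were higher and 56 (25.2%) lower in tissue, and 1 of the 4 members was called. This was miR-139-5p, at -4.22 and -4.24 cycles in tissue against -3.81 to -2.20 in sorted samples. It was higher in tissue by 1.41 ± 0.275 (SE; limma adjusted p = 0.0016). Its levels ran from tissue over stellate to non-stellate samples with no overlap, and the share of all assays with this order was not counted. The step from stellate to non-stellate samples alone, a contrast used to choose the hairpins, was seen in 5 of 176 assays (2.84%).

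MiR-342-5p went the other way after median centring, at 4.52 and 3.77 cycles in tissue against 1.24 to 2.72 in the 9 determined sorted samples. The share of all assays separated in this way was not counted. Its difference was -1.49 ± 1.67 (SE; limma adjusted p = 0.478) with the well at 40. With undetermined wells missing, a setting added after the data had been seen, it was lower in tissue by 2.26, written as -2.26 ± 0.455 (SE; limma adjusted p = 0.00141). Of the 221 assays tested in that setting, 69 were lower and 63 higher in tissue, so such a call was common. MiR-139-3p and miR-342-3p were not called after median centring, at 0.58 ± 2.16 (SE; limma adjusted p = 0.845) and -0.75 ± 0.580 (SE; limma adjusted p = 0.301).

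Other hairpins of the card show how far an arm gap usually varied. Both arms were on the card for 36 hairpins, and in 14, including miR-139 and miR-342, both were determined in at least 8 of the 10 sorted samples. The SD of the gap over sorted samples was 0.653 cycles for miR-139 and 0.755 for miR-342, against 0.478 to 2.12, with a median of 0.915, for the other 12. The narrowest spreads belonged to miR-324 (0.478), miR-125b (0.505) and miR-335 (0.573), and the widest to miR-337 (2.12), miR-340 (1.95) and miR-126 (1.78). The difference of the gap between stellate and non-stellate group means was -0.772 for miR-139 and 0.205 for miR-342, and 5 and 10 of the other 12 had a larger one in size. The tissue change was also within the range of the others. Of the 11 others measured in tissue, 7 had a larger change in size than miR-139 and 7 a larger one than miR-342, from -2.19 (miR-129) to 4.35 (miR-532), and in 7 of 11 both tissue samples lay outside the sorted range. A tissue gap outside the sorted range was thus seen in other hairpins as well.

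**Figure D4:**
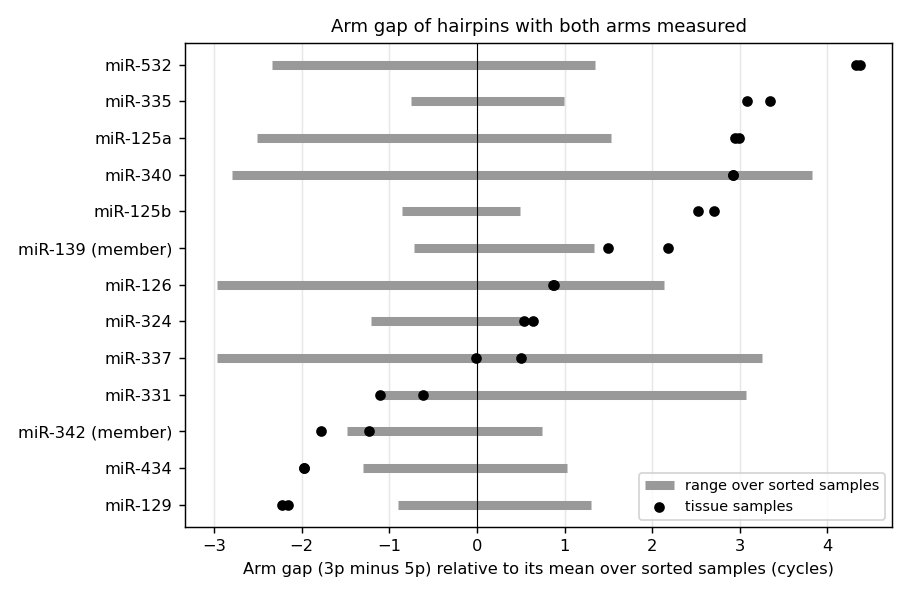
Arm gap relative to its mean over sorted samples (cycles) for the 13 hairpins with both arms determined in at least 8 sorted samples and in tissue; grey bars span the sorted samples and black points are the 2 tissue samples. The tissue points of miR-139 lie just above its sorted range and 1 of those of miR-342 just below its own, and several other hairpins lie further out.

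Profiles over the sorted samples were compared by Pearson's r of median-centred Ct, as a description, since all assays come from the same RNA samples and share the same centring. Group means were not removed, so r includes the stellate against non-stellate contrast on which the hairpins were chosen. MiR-222 and miR-132, named here, were among the assays that separated these groups without overlap, as was miR-139-5p. MiR-139-5p was most like miR-222 (r = 0.963), miR-376a (0.891) and miR-434-3p (0.870) over 10 samples. MiR-139-3p was most like miR-146a (0.820), miR-132 (0.819) and miR-409-3p (0.783) over the 9 samples where it was determined. MiR-342-3p was most like miR-191 (0.942), miR-539 (0.892) and miR-186 (0.867) over 10 samples, and miR-342-5p like miR-185 (0.822), miR-495 (0.813) and miR-323-3p (0.757) over 9. The opposite arm was not the nearest profile for any member. The arms of miR-139 had r = 0.722 over 9 samples, which placed the 5p arm at position 8 of 176 for miR-139-3p and the 3p arm at position 15 for miR-139-5p. The arms of miR-342 had r = 0.471 over 9 samples, and stood at positions 48 and 31.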

How the data were processed

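Ct values were obtained with a TaqMan Rodent MicroRNA A card (384 wells) after multiplex reverse transcription and pre-amplification. The Ct values deposited by the authors are on a log2 scale in cycles, with undetermined wells at 40, and the normalized log2 values deposited by the authors equal Ct minus the mean of the 4 U6 wells of the sample (largest difference 7.1e-15). Tables of the authors' own fold changes and limma results were not used. Groups came from titles, sources and fluorescence labels. The description field of non-stellate 3 and 5 reads as that of labelled cells; both were kept by their other labels and left out in an added alternative. The members, the lists and the tests were chosen with earlier results of these data known. No molecule counts exist for such cards, so determined assays and reference Ct stand in for it.

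Tissue (2 samples) was set against the mean of stellate and non-stellate samples with limma 3.58.1 under R 4.3.3 (functions lmFit and eBayes, no block, two-sided, Benjamini-Hochberg adjusted, threshold 0.05) on 222 assays that lacked a Ct in at most 3 sorted samples, after testing on simulated data. Arm gaps were compared by exact permutation (scipy 1.17.1). Levels are minus differences in Ct. Medians were taken over 176 assays. Named were the members, hairpins with both arms on the card (the 3 with the widest and narrowest gap spread), and the 3 assays most like each member. The labels describe labelled and unlabelled cells of 5 biological replicates, so equal numbers were read as pairs. Deviations from group means correlated within pairs at 0.331, 0.119, 0.256, 0.155 and 0.0743, against a mean of -0.0481 for different numbers (176 assays). Alternatives changed the scaling, the reference RNA, undetermined wells, the assay filter, the block and the samples. Whether tissue samples came from separate animals is known only from their labels, so p-values measure the spread between these samples.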

Additional observations from a re-analysis of the deposited data

Results flagged for a closer look

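In 12 groups of values (the 4 members relative to U6 and the 2 arm gaps, in stellate and in non-stellate samples), samples far from the others were sought. The measure was the gap to the nearest value over the range of the group. Of the 12 groups, 5 were flagged, where about 1 in 20, or 0.6, would be by chance if the groups were independent. Of these 5, 4 are the wells at Ct 40 in non-stellate 3. The 2 flags of arm gaps there follow from the 2 flags of members, so the 5 are not independent and no excess can be read from them. MiR-139-3p relative to U6 was 22.1 there, against 9.43 to 11.3 in the other non-stellate samples, and miR-342-5p was 22.1, against 11.7 to 13.4. The arm gaps that follow were 11.9 cycles for miR-139, against 1.56 to 3.17, and -11.9 for miR-342, against -5.12 to -3.78. The last was the miR-342 gap of stellate 1, with both wells determined, at -5.79 cycles against -4.13 to -3.57 in the other stellate samples.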

How the results depend on the processing

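Median centring combined with other choices, and leaving out non-stellate 3 and 5, were alternatives chosen after seeing the data. The wells at 40 are not measurements. The gap difference between tissue and sorted cells turned to -0.527 cycles for miR-139 and 0.107 for miR-342 against non-stellate samples alone, where the wells at 40 carry more weight. Without 1 sample each it ran from 0.481 to 1.84 and from -1.51 to -0.474, the far ends (1.84 and -1.51) without non-stellate 3. With the replicate block (replicate means) and wells at 40 kept, it stayed 0.826 and -0.746 (exact permutation p = 0.667, where 0.0952 is the smallest possible). The block changed no call of the 222 assays in number (138 higher, 3 lower).

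Assays higher in tissue numbered 53 with median centring, 63 with global mean scaling and 17 with Y1 as reference, and with median centring 63 with undetermined wells missing, 50 with the replicate block and 56 without non-stellate 3 and 5. Those lower numbered 56, 49 and 51, then 69, 54 and 60, and were 5 with Ct capped at 35 and 56 with no filter. Without 1 sample each, 96 to 144 were higher and 1 to 4 lower, the fewest without tissue 1.

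Signs reversed for miR-139-3p with median centring, to -0.42 with undetermined wells missing and -0.57 without non-stellate 3 and 5. MiR-342-3p reversed to -0.75 with median centring, -0.43 with global mean, -1.26 with Y1, and with median centring to -0.75 with undetermined wells missing, -0.75 with the block and -0.81 without non-stellate 3 and 5. MiR-342-5p reversed to -1.49, -1.18, -2.01, -2.26, -1.49 and -2.37 in that order. The call of miR-139-5p was lost with Y1 (0.89, limma adjusted p = 0.322) and that of miR-342-3p with snoRNA202 (limma adjusted p = 0.144) and without tissue 1 or tissue 2 (limma adjusted p = 0.0958 and 0.0704). Of 114 settings of the members between tissue and sorted cells, 92 kept direction and call. The cause was not tested.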
